A study of Mus musculus with 18 samples.

Results

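Translation initiation and elongation factors are the proteins that bring an mRNA to the ribosome, set the start codon and then move the ribosome along the message. Their genes were chosen by name, as symbols that begin with Eif1 to Eif6, Eef1 or Eef2. The Eif2ak kinases, Y-linked genes and pseudogene names were left out. The rule found 59 genes of the 13787 listed in any of the 3 tables of the study. Of these, 58 were among the 12679 genes measured in p53WT leukemia at 10 h, and all 59 were among the 12861 and 12838 genes of the other 2 tables. Eef1akmt3, an eEF1A methyltransferase gene, was absent from the table for p53WT leukemia at 10 h. Eef1a2, Eef1akmt4, Eif2c5, Eif4e1b and Eif4ebp3 matched the rule by name but were in none of the tables and were not analysed here.

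The leukemia was a mouse acute myeloid leukemia (AML) carrying the MLL/ENL fusion and Nras, either wild type for p53 (p53WT) or without it (p53null). It was grown by transplant in C57BL/6 mice, and GFP-positive cells were sorted from bone marrow after treatment of the mice with vehicle or with CX-5461, a drug that blocks RNA polymerase I. RNA was sequenced from 18 samples. They form 6 groups of 3, vehicle and CX-5461 in each of 3 settings: p53WT at 10 h, p53WT at 72 h and p53null at 10 h. All 6 groups share the MLL/ENL and Nras background. The labels used here give no dose, and they do not say whether the samples of a group came from separate mice, so p-values measure the spread between these samples, which may be technical. Sample titles carry different tags for the 2 genotypes at 10 h, so that genotype and source of the leukemia cannot be told apart. Titles at 72 h lack the tag of the p53WT titles at 10 h, so time and source cannot be told apart either.

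Initiation begins when eIF2 carries the initiator tRNA to the small ribosomal subunit, held open by eIF1, eIF1A and the large eIF3 complex. The eIF4F complex binds the mRNA cap through eIF4E, holds the message on the scaffold eIF4G and unwinds it with the helicase eIF4A. After start codon recognition, eIF5 and eIF5B release factors and join the large subunit, eEF1 then delivers each aminoacyl-tRNA and eEF2 moves the ribosome forward. Cells adjust this machinery mainly through phosphorylation, of eIF2 by the Eif2ak kinases, of the eIF4E-binding proteins by mTOR, and of eEF2 by its kinase.

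Counts per library were at hand for p53WT AML at 10 h, with totals from 22090394 to 48118513 in the vehicle libraries and from 21578685 to 37244725 in the CX-5461 libraries. Across genes, log2 CPM (the count over the library total scaled by TMM, as a rate) correlated less tightly among vehicle libraries (r = 0.974 to 0.987) than among CX-5461 libraries (r = 0.995 to 0.996). Markers of the leukemic myeloid progenitor (10 of 10 in the table) summed to between 13432 and 17197 CPM with vehicle and between 17478 and 17528 CPM with CX-5461. Singly, 7 of these 10 had a positive and 3 a negative log2 fold change (median 0.13, from -0.41 to 0.41). By the edgeR test used for the factor genes, 0 of the 10 were higher and 1 lower, beside 3.78% and 4.32% of all genes. Erythroid markers (14 of 14) summed to 4725, 16213 and 531 CPM in vehicle libraries 1, 2 and 3 and to 206, 373 and 297 CPM in CX-5461 libraries 1, 2 and 3. Mature neutrophil markers (12 of 12) ran from 7317 to 19310 CPM with vehicle and from 3051 to 4189 CPM with CX-5461. Monocyte and macrophage markers (10 of 10) ran from 882 to 1263 CPM with vehicle and from 674 to 739 CPM with CX-5461. None of these markers was at 0 in any library. Of T and NK cell markers and of megakaryocyte markers, 2 of 7 and 3 of 5 were in the table, and Cd3e, Cd3g, Cd4, Cd8a, Klrb1c, Pf4 and Ppbp were not. The T and NK cell sum was higher with CX-5461 (91.7 to 93.1 CPM) than with vehicle (57.4 to 72.7 CPM), with 1 log2 fold change positive and 1 negative. Megakaryocyte markers ran from 4.30 to 12.1 CPM with vehicle and from 2.77 to 5.11 CPM with CX-5461. B cell markers (2 of 6) ran from 22.5 to 70.7 CPM with vehicle and from 23.1 to 25.5 CPM with CX-5461. Fewer cells of a type and less RNA per cell cannot be told apart in such bulk samples.

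Per kb of exon, the vehicle levels of the factors in p53WT AML at 10 h spread widely. Eef1a1, the main carrier of aminoacyl-tRNA, was highest at 4010 CPM per kb. The next in order were Eef2 at 899, the helicase gene Eif4a1 at 559, and Eif5a, whose product eases peptide bond formation, at 519 CPM per kb. Eef1g and Eef1b2, subunits of the exchange factor that recharges eEF1A, followed at 377 and 326 CPM per kb. The 14 genes of eIF3 ran from 17.4 CPM per kb (Eif3j1) to 248 CPM per kb (Eif3h), with a median of 122. Reads of Eif3j1 and its near copy Eif3j2 could have been split between them. Eif5a2, the second eIF5A gene, was last at 0.355 CPM per kb, from 23 to 74 counts per library. The order of the top 2 genes was not the same in every comparison. By log2 mean CPM, without exon length, Eef1a1 was at 12.82 and Eef2 at 11.42 in the authors' deposited table for p53WT AML at 10 h. They were at 11.40 and 12.29 in that for p53null AML, and at 10.92 and 11.44 in that for p53WT AML at 72 h.

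**Figure D1:**
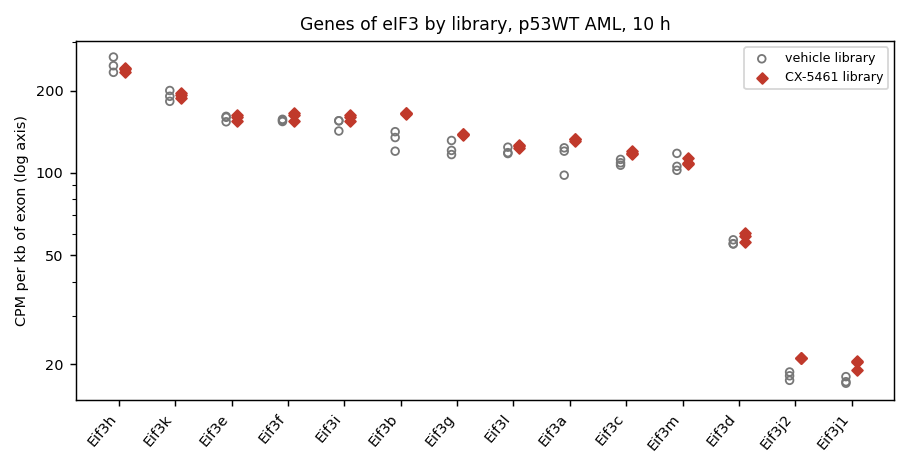
Levels of the 14 eIF3 genes in p53WT AML at 10 h, in CPM per kb of exon on a log axis, with the 3 vehicle libraries as open circles and the 3 CX-5461 libraries as filled diamonds. The Eif3j1 and Eif3j2 genes lie lowest, with vehicle means of 17.4 and 18.1 CPM per kb, and Eif3h highest at 248, and the 3 CX-5461 libraries of Eif3b lie above its 3 vehicle libraries.

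The letters CACGTG, known as the E-box that MYC and related factors bind, were searched in the 300 bases around annotated start sites. The windows came from RefSeq on GRCm38.p6, with 250 bases before and 50 after the start. CACGTG reads the same on both strands and was in 7.15% of all 32851 windows, or in 8.09% of genes with a window. Those 27025 genes were not limited to the genes measured here, and the share among measured genes was not computed. Of the 45 factor genes with a window, 12 held it (26.7%): Eef2, Eef2k, Eif1b, Eif3a, Eif3f, Eif3k, Eif4a1, Eif4e, Eif4g1, Eif4h, Eif5a and Eif5a2. Windows were not found for Eef1akmt1, Eef1akmt3, Eef1d, Eef1g, Eif1a, Eif2b3, Eif3e, Eif3h, Eif3i, Eif3j2, Eif4e3, Eif4ebp1, Eif4g2 and Eif6. The lines show, with the E-box in capitals, stretches of the 5 genes with an E-box that passed a test with CX-5461. They are Eif4a1 on the minus strand (chr11:69672595-69672624), Eif4g1 on the plus strand (chr16:20672661-20672690), Eif5a on the minus strand (chr11:69921443-69921472), Eef2k on the plus strand (chr7:120842788-120842817) and Eif3f on the plus strand (chr7:108934335-108934364).
Eif4a1: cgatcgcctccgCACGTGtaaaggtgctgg
Eif4g1: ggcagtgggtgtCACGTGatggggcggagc
Eif5a: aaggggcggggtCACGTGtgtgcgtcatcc
Eef2k: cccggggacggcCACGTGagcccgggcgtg
Eif3f: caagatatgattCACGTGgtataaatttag
Counted from the start site as position 0, the first base of the E-box was at -189 in Eif4a1, -54 in Eif4g1, -31 in Eef2k and -68 in Eif3f. In Eif5a it was at -74 or -185, depending on the annotated start. Eif4g1 holds a further copy after its start, at position 15, and Eif5a a further copy at -178 of another window. These are matches of letters, and binding was not measured.

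A terminal pyrimidine tract at the start of an mRNA couples its translation to mTOR, and many elongation factor mRNAs are known for it. It was searched as a C at the annotated start base followed by at least 4 pyrimidines, on the gene's own strand. Of the 45 genes with a window, Eif3f and Eif2s3x held it (4.44%), beside 3.01% of all genes with a window. The annotated start of a gene can differ by a few bases from that used in these cells. The tract is in capitals in the stretches of Eif3f on the plus strand (chr7:108934405-108934434) and Eif2s3x on the minus strand (chrX:94212632-94212661).
Eif3f: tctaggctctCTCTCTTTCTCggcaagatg
Eif2s3x: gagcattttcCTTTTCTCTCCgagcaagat

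In p53WT AML at 10 h, 7 of the 58 measured factor genes rose with CX-5461 and 0 fell, the largest rise being 1.43-fold. They were Eif1a, Eef1e1, Eif2d, Eif3b, Eif4a1, Eif3j2 and Eif1ad. Eif1a and Eif1ad belong to scanning, Eif3b and Eif3j2 to eIF3, and the other 3 to different groups. A gene passed at an adjusted p under 0.05 in the quasi-likelihood test of edgeR with Benjamini-Hochberg adjustment over all 12679 genes. By that rule 3.78% of all genes were higher and 4.32% lower, 8.10% in either direction, beside 12.1% higher and 0% lower among the factor genes. At an unadjusted p under 0.05, 21 factor genes were higher and 1 was lower, beside 14.7% and 16.7% of all genes. The median log2 fold change was 0.07 over the factor genes and 0.00 over all genes, with 45 positive and 13 negative values among the 58.

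The calls at 10 h rest on all 3 CX-5461 libraries. Without CX-5461 library 1, 2 or 3, 0 factor genes passed, and over all genes 24, 23 and 23 were higher and 1, 0 and 0 lower. The log2 fold changes then moved little for Eif1a, to 0.52, 0.50 and 0.51 (0.51 with all libraries), and for Eif2d, to 0.35, 0.34 and 0.35 (0.35 with all libraries). That of Eef1e1 moved to 0.35, 0.34 and 0.41 (0.37 with all libraries). Without vehicle library 1, 2 or 3, 6, 8 and 5 factor genes were higher and 1, 1 and 0 lower. Over all 12679 genes, 817, 570 and 474 were then higher and 861, 665 and 840 lower. Eif1a moved more than with the CX-5461 libraries, to 0.65, 0.44 and 0.46, and Eif2d was at 0.33, 0.38 and 0.33. Without vehicle library 3, Eif1a did not pass the quasi-likelihood test (adjusted p = 0.0535). The FDR (false discovery rate) of the authors' deposited table for the same libraries called 1 factor gene, Eif1a, beside 3.57% of all genes higher and 6.83% lower, or 10.4% in either direction, by that FDR. With DESeq2 12 were higher and 1 lower, beside 962 and 1352 of all 12679 genes. Limma-voom gave 5 higher and 0 lower (394 and 330 of all genes), and the exact test of edgeR 6 and 0 (694 and 1021 of all genes), where the quasi-likelihood test gave 479 and 548.

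The factor genes took 2.44%, 2.22% and 2.33% of the counts in vehicle libraries 1, 2 and 3 and 2.51%, 2.54% and 2.54% in CX-5461 libraries 1, 2 and 3. By this share of raw counts, all 3 CX-5461 libraries lay above the 3 vehicle libraries, by a small margin over vehicle library 1. Their summed CPM, scaled by TMM, was 24450, 23382 and 23002 in vehicle libraries 1, 2 and 3. In CX-5461 libraries 1, 2 and 3 that sum was 24600, 25134 and 25062 CPM. Vehicle library 3 was lowest by the sum. Relative to the CX-5461 mean, the median log2 CPM of the factor genes was -0.06, -0.08 and -0.13 in vehicle libraries 1, 2 and 3. By this median vehicle library 3 was lowest, and by share of counts vehicle library 2 was lowest. Vehicle library 3 had the fewest erythroid marker counts of the vehicle libraries, and vehicle library 2 the most. Without vehicle library 1, 2 or 3, the factor genes' median log2 fold change was 0.09, 0.09 and 0.05. For single genes, the CX-5461 libraries all exceeded the vehicle libraries in 26 of 58 (44.8%) and all fell short of them in 1 (1.72%), beside 19.9% and 19.1% of all genes. The range over vehicle libraries was wider than that over CX-5461 libraries in 47 of 58 factor genes, and in 75.3% of all genes. The part of the marker differences between libraries in these values was not tested.

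**Figure D2:**
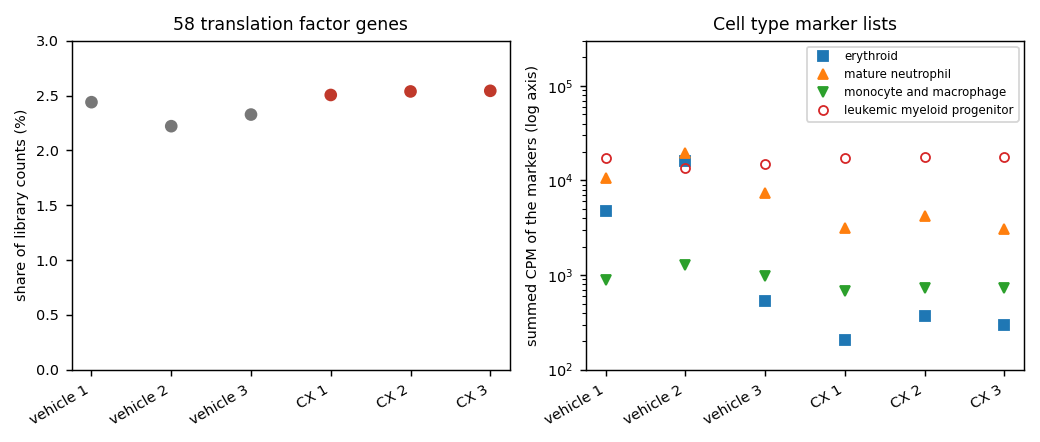
Left, share of the counts of each p53WT library at 10 h taken by the 58 factor genes, in percent, with vehicle in grey and CX-5461 in red. Right, summed CPM of 4 marker lists in the same libraries on a log axis. The factor share runs from 2.22% to 2.44% with vehicle and from 2.51% to 2.54% with CX-5461, while erythroid markers run from 531 to 16213 CPM among vehicle libraries.

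**Figure D3:**
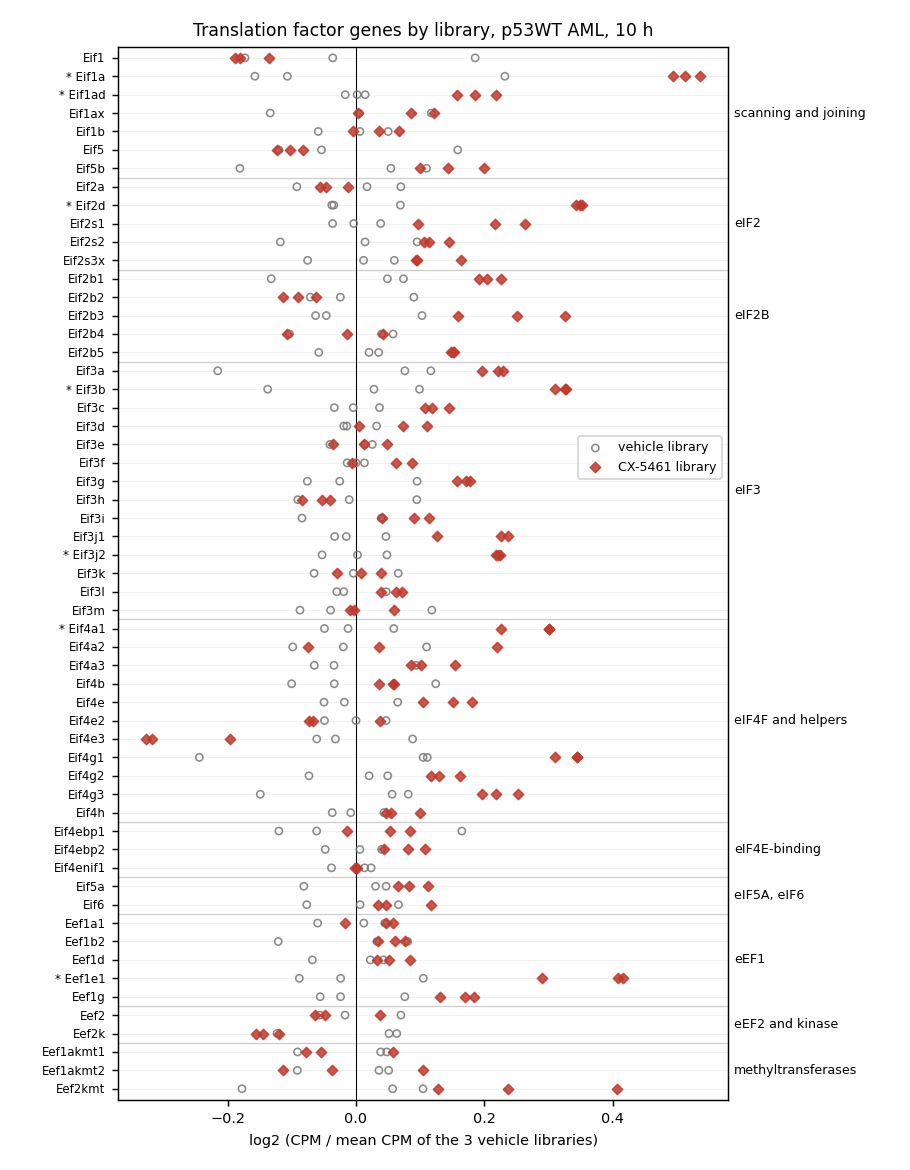
Level of 57 factor genes in each p53WT library at 10 h, as log2 of the CPM over the mean of the 3 vehicle libraries, grouped by role. Open circles are vehicle and filled diamonds CX-5461 libraries, an asterisk marks the 7 genes that passed the test, and Eif5a2 is left out because its few counts spread too widely for the axis. Eif1a lies farthest to the right, and Eif4e3 is the gene whose CX-5461 libraries all lie left of its vehicle libraries.

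Among the 7 genes of start codon scanning and subunit joining, 2 rose at 10 h. Eif1a (ENSMUSG00000057561), which encodes a form of eIF1A, the factor that holds the small subunit ready for scanning, measured 77.3, 59.0 and 61.1 CPM with vehicle and 92.6, 95.4 and 93.9 CPM with CX-5461. The groups did not overlap, and vehicle library 1 was the highest of its group. Its mean rose from 65.8 ± 10.0 to 94.0 ± 1.40 CPM (SD, n = 3), with a log2 fold change of 0.51 (SE 0.103, adjusted p = 0.0388). This was the largest change of the factor genes at 10 h, and the authors' deposited table gave it the same log2 fold change with an FDR of 0.00769. Eif1ad, named for its eIF1A domain, measured 95.6, 96.4 and 94.3 CPM with vehicle and 108, 111 and 106 CPM with CX-5461 (log2 fold change 0.19, SE 0.0422, adjusted p = 0.0452). Its groups lay close together but apart, and it passed in 5 of 12 alternative settings, with adjusted p up to 0.188. Eif1a passed in 8, with adjusted p up to 0.171.

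The X-linked eIF1A gene, Eif1ax, had a log2 fold change of 0.07 (adjusted p = 0.533), and its sequence resembles that of Eif1a so closely that reads could have been shared. The 2 most abundant genes of the group did not pass. Eif5, whose product triggers GTP hydrolysis by eIF2, measured 365, 423 and 349 CPM with vehicle and 358, 353 and 348 CPM with CX-5461. Eif1, the gatekeeper of start codon choice, measured 180, 210 and 163 CPM with vehicle and 163, 168 and 162 CPM with CX-5461. Vehicle library 2 was highest for both, and the groups overlapped. Eif1b and Eif5b, which encodes the factor that joins the large subunit, had log2 fold changes of 0.03 and 0.15 (adjusted p = 0.689 and 0.253).

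Of the 5 genes around eIF2, Eif2d rose at 10 h. Eif2d (ENSMUSG00000026427), which encodes a factor that can place tRNA on the ribosome without GTP, measured 54.7, 58.8 and 54.6 CPM with vehicle and 71.1, 71.3 and 71.5 CPM with CX-5461. The CX-5461 libraries were almost equal and all above vehicle. The mean rose from 56.0 ± 2.39 to 71.3 ± 0.213 CPM (SD, n = 3), with a log2 fold change of 0.35 (SE 0.0499). Its adjusted p of 0.0246 was the smallest of the factor genes, it passed in 9 of 12 alternative settings, and the authors' deposited table gave an FDR of 0.0559. Eif2s3x, the gene of the gamma subunit that binds GTP and tRNA, measured 332, 302 and 321 CPM with vehicle and 340, 357 and 340 CPM with CX-5461 (adjusted p = 0.185). Eif2s2, of the beta subunit, measured 166, 175 and 151 CPM with vehicle and 178, 181 and 177 CPM with CX-5461 (adjusted p = 0.223). For both genes the CX-5461 libraries all lay above vehicle, by a small margin. Eif2s1, of the alpha subunit that stress kinases phosphorylate, had a log2 fold change of 0.19 (adjusted p = 0.0717), and Eif2a, an unrelated tRNA-binding factor, one of -0.04 (adjusted p = 0.669).

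None of the 5 genes of eIF2B, the exchange factor that reloads eIF2 with GTP, passed at 10 h. Eif2b5, of the catalytic subunit, measured 82.8, 77.6 and 81.9 CPM with vehicle and 89.7, 89.5 and 89.7 CPM with CX-5461. The groups did not overlap, and its log2 fold change was 0.15 (SE 0.0460, adjusted p = 0.0790). Eif2b2 measured 56.9, 63.6 and 58.8 CPM with vehicle and 56.1, 55.2 and 57.2 CPM with CX-5461, with overlapping groups. The regulatory subunit gene Eif2b1 and Eif2b3 had log2 fold changes of 0.21 and 0.25 (adjusted p = 0.0900 and 0.0814), and Eif2b4 one of -0.03.

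Of the 14 genes of eIF3, 2 rose at 10 h and 13 had a positive log2 fold change. Eif3b (ENSMUSG00000056076), which encodes a core scaffold subunit, measured 417, 354 and 397 CPM with vehicle and 488, 488 and 482 CPM with CX-5461. Its mean rose from 389 ± 32.2 to 486 ± 3.06 CPM (SD, n = 3), with a log2 fold change of 0.32 (SE 0.0683, adjusted p = 0.0419). The vehicle libraries spread more than the CX-5461 libraries, and vehicle library 2 was lowest. Eif3b passed in 8 of 12 alternative settings, with adjusted p up to 0.178. Eif3j2 measured 43.2, 41.6 and 44.6 CPM with vehicle and 50.1, 50.4 and 50.2 CPM with CX-5461 (log2 fold change 0.22, SE 0.0498, adjusted p = 0.0450). Its near copy Eif3j1 had a log2 fold change of 0.20 (adjusted p = 0.0562), and reads of the 2 genes could have been split between them. Eif3j2 passed in 5 of 12 alternative settings. Eif3a, the largest subunit and the most abundant by CPM, measured 633, 503 and 615 CPM with vehicle and 684, 669 and 681 CPM with CX-5461. Its groups did not overlap, but the log2 fold change of 0.22 (SE 0.0907) did not pass (adjusted p = 0.156). The other 10 members, such as Eif3e, Eif3h and Eif3k, had log2 fold changes from -0.06 to 0.17 and did not pass.

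Of the 11 genes of eIF4F and its helpers, Eif4a1 rose at 10 h. Eif4a1 (ENSMUSG00000059796), the cap-complex helicase, measured 1034, 959 and 984 CPM with vehicle and 1223, 1223 and 1162 CPM with CX-5461. Its mean rose from 993 ± 38.0 to 1203 ± 35.6 CPM (SD, n = 3), with a log2 fold change of 0.28 (SE 0.0571, adjusted p = 0.0401), and the groups did not overlap. It passed in 9 of 12 alternative settings, while the authors' deposited table gave an FDR of 0.151. Its paralogs Eif4a2 and Eif4a3, the latter a subunit of the exon junction complex, had log2 fold changes of 0.07 and 0.11 (adjusted p = 0.640 and 0.213). Eif4g2, whose product resembles eIF4G but lacks the eIF4E-binding part, was the most abundant gene of the group by CPM. It measured 1332, 1305 and 1223 CPM with vehicle and 1396, 1441 and 1408 CPM with CX-5461, apart by less than the range over vehicle (adjusted p = 0.155).

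Eif4g1, the main scaffold gene, measured 635, 498 and 637 CPM with vehicle and 749, 731 and 749 CPM with CX-5461, and vehicle library 2 stood low. Its log2 fold change of 0.33 (SE 0.0991) did not pass (adjusted p = 0.0745), and without vehicle library 2 it was 0.22 and passed (adjusted p = 0.0257). It passed in 3 of 12 alternative settings, with adjusted p from 0.0101 to 0.229. Eif4e3, of a cap-binding relative of eIF4E, measured 35.7, 39.6 and 36.4 CPM with vehicle and 29.7, 32.5 and 29.9 CPM with CX-5461. It was the 1 factor gene with every CX-5461 library under every vehicle library. Its log2 fold change of -0.28 (SE 0.0685) lay just outside the threshold (adjusted p = 0.0517), and it was inside without vehicle library 1 (-0.31, adjusted p = 0.0493). Over 12 alternative settings, its adjusted p ran from 0.0165 to 0.206. Eif4e, the cap-binding protein gene, had a log2 fold change of 0.15 (adjusted p = 0.102), and Eif4b and Eif4h, helpers of the helicase, had 0.05 and 0.07.

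The genes of eIF4E-binding regulators, eIF5A, eIF6 and eEF2 gave no call at 10 h. Eif4ebp2, an mTOR-controlled inhibitor of eIF4E, measured 157, 151 and 160 CPM with vehicle and 168, 161 and 165 CPM with CX-5461 (adjusted p = 0.285). Eif4enif1, which encodes the eIF4E transporter, measured 110, 111 and 107 CPM with vehicle and 110, 109 and 109 CPM with CX-5461, with a log2 fold change of 0.00. The inhibitor gene Eif4ebp1 had a log2 fold change of 0.04 (adjusted p = 0.764). Eif5a measured 1260, 1274 and 1166 CPM with vehicle and 1290, 1333 and 1306 CPM with CX-5461 (adjusted p = 0.345), and its groups lay apart by less than their own ranges. Eif6, which keeps free large subunits from joining, measured 107, 111 and 101 CPM with vehicle and 109, 110 and 115 CPM with CX-5461, with overlap. Eif5a2 had a log2 fold change of -0.18 (SE 0.370), too uncertain at its depth to show a difference.

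Of the 5 genes of eEF1, Eef1e1 rose at 10 h. Eef1e1 (ENSMUSG00000001707), named for eEF1 but known as a subunit of the complex of aminoacyl-tRNA synthetases, measured 36.3, 31.7 and 33.2 CPM with vehicle and 44.7, 45.0 and 41.2 CPM with CX-5461. Its mean rose from 33.7 ± 2.32 to 43.6 ± 2.12 CPM (SD, n = 3), with a log2 fold change of 0.37 (SE 0.0712, adjusted p = 0.0364), and the groups did not overlap. It passed in 9 of 12 alternative settings, and the authors' deposited table gave an FDR of 0.0544. Eef1a1 measured 7424, 7256 and 6903 CPM with vehicle and 7109, 7489 and 7432 CPM with CX-5461, with overlapping groups and a log2 fold change of 0.03 (SE 0.0598, adjusted p = 0.769). Eef1a1 has many processed copies in the genome, which can take or lend reads. Eef1g measured 741, 676 and 691 CPM with vehicle and 791, 770 and 798 CPM with CX-5461, with all CX-5461 libraries above vehicle (log2 fold change 0.16, SE 0.0569, adjusted p = 0.108). Eef1b2 and Eef1d, the other exchange subunits, both had 0.06 (adjusted p = 0.581 and 0.454).

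Eef2, the translocation factor, measured 2916, 2672 and 2745 CPM with vehicle and 2657, 2686 and 2852 CPM with CX-5461, with overlapping groups and an adjusted p of 0.823. Eef2k, the gene of the kinase that inhibits eEF2, measured 148, 131 and 150 CPM with vehicle and 129, 128 and 132 CPM with CX-5461. Vehicle library 2 lay with the CX-5461 libraries, and the log2 fold change of -0.14 (SE 0.0603) did not pass (adjusted p = 0.164). Without vehicle library 2 it was -0.20 and passed (adjusted p = 0.0268), the 1 of 12 alternative settings in which it did, and elsewhere its adjusted p reached 0.402. Of the methyltransferase genes, Eef1akmt1 measured 27.6, 27.4 and 25.1 CPM with vehicle and 25.7, 27.8 and 25.3 CPM with CX-5461, with overlap. Eef2kmt, whose product methylates eEF2, measured 16.4, 13.5 and 15.8 CPM with vehicle and 20.2, 17.9 and 16.6 CPM with CX-5461, with a log2 fold change of 0.26 (SE 0.111, adjusted p = 0.157). The groups of Eef2kmt did not overlap, and CX-5461 library 1 stood above the others.

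In p53null AML at 10 h, 0 of 59 factor genes passed an FDR of 0.05 in the authors' deposited table, made with edgeR. By that rule 0.148% of all genes were higher and 0.0389% lower. At the authors' unadjusted p under 0.05, 0 factor genes were higher and 1 lower, beside 3.15% and 2.92% of all genes. The factor genes ran from -0.12 to 0.15 on the log2 scale, with 29 positive and 30 negative and a median of 0.00. The smallest FDR, 0.772, was that of Eif5a at -0.12 in the authors' deposited table. Eif1a was at -0.02, Eif2d at 0.10, Eef1e1 at 0.00, Eif3b at 0.03 and Eif4a1 at -0.01 in that authors' deposited table. Eif3j2 was at 0.06 and Eif1ad at -0.06 there. These are the 7 genes that rose in p53WT AML at 10 h. Whether the responses of the genotypes differ was not tested, because counts were at hand for p53WT AML at 10 h alone. That table gives no value per library, and its depth is unknown.

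**Figure D4:**
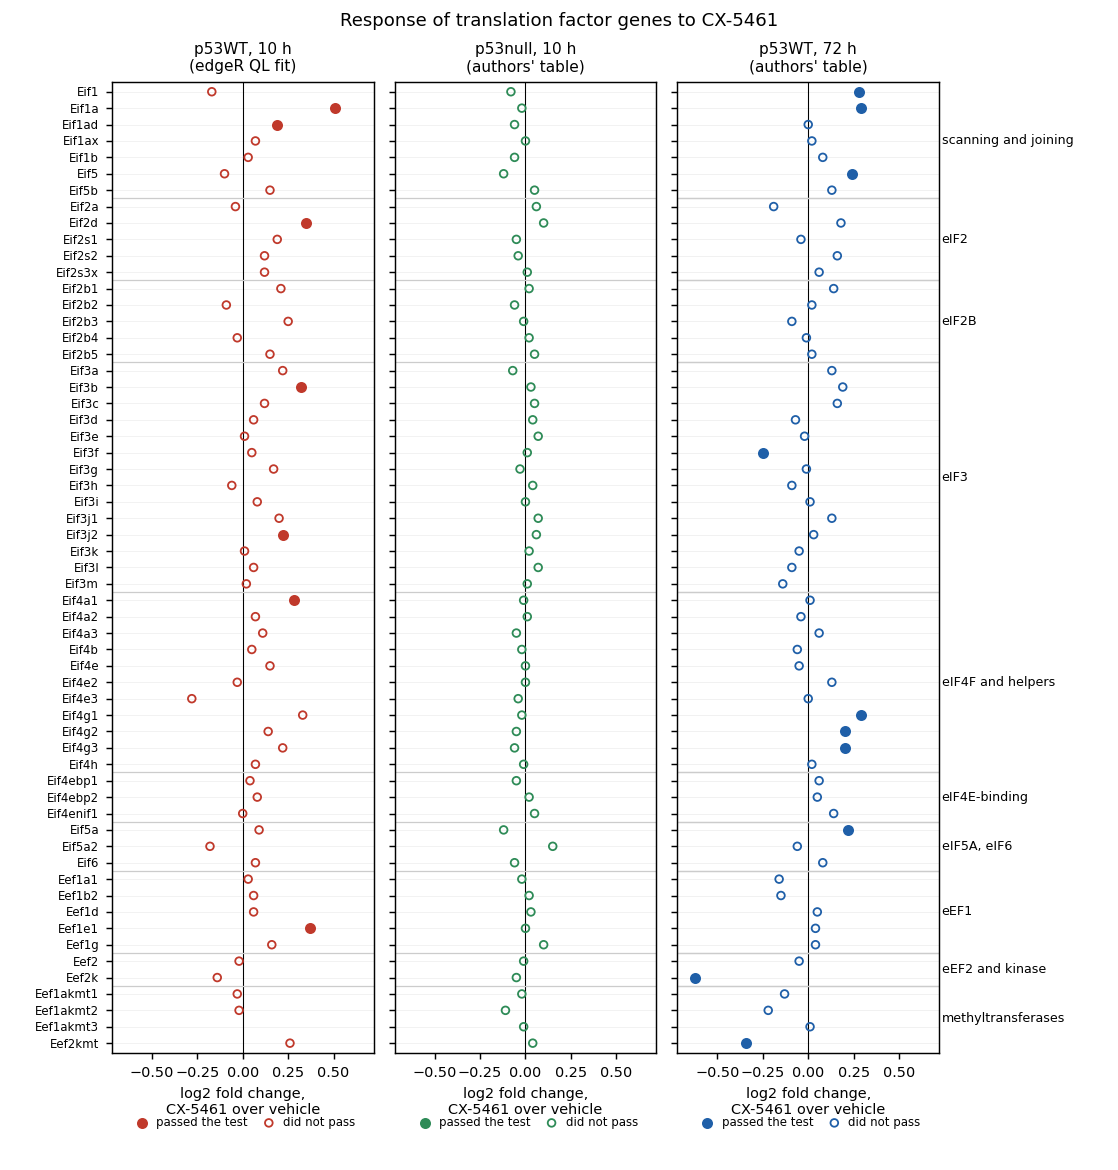
Log2 fold change of each factor gene, CX-5461 over vehicle, from the edgeR fit of the counts for p53WT AML at 10 h (left) and from the authors' deposited tables for p53null AML (middle) and p53WT AML at 72 h (right). Filled points passed 0.05 after adjustment and open points did not. The p53null values stay between -0.12 and 0.15, while those of p53WT AML reach 0.51 at 10 h and -0.62 at 72 h.

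In p53WT AML at 72 h, 7 of 59 factor genes rose and 3 fell in the authors' deposited table at an FDR under 0.05, beside 16.1% and 15.1% of all genes. The 3 eIF4G genes, the scanning genes Eif1, Eif1a and Eif5, and Eif5a rose. Eef2k, Eef2kmt and Eif3f fell. The share of factor genes that passed was 16.9%, beside 31.2% of all genes. At the authors' unadjusted p under 0.05, 10 factor genes were higher and 5 lower, beside 20.3% and 19.6% of all genes. Their median log2 fold change was 0.02, beside -0.01 over all genes.

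The scaffold genes rose together at 72 h, with Eif4g1 at 0.29 (FDR 0.00395), Eif4g2 at 0.20 (FDR 0.0176) and its relative Eif4g3 at 0.20 (FDR 0.0273) in the authors' deposited table. No other gene of eIF4F passed. Eif4a1, which had risen at 10 h, was at 0.01 (FDR 0.904) in the authors' deposited table, and Eif4e at -0.05. Of the 7 scanning and joining genes, 3 rose in the authors' deposited table for 72 h, Eif1a by 0.29 (FDR 0.00572), Eif1 by 0.28 (FDR 0.0129) and Eif5 by 0.24 (FDR 0.0111). The other 4 were between 0.00 and 0.13 there. Eif5a rose by 0.22 (FDR 0.0156) in the authors' deposited table.

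The largest change of a factor gene at 72 h was the fall of the eEF2 kinase gene, Eef2k, to -0.62 (FDR 4.1e-11) in the authors' deposited table. Its target gene Eef2 was at -0.05 (FDR 0.752) there. The eEF2 methyltransferase gene Eef2kmt was at -0.34 (FDR 0.0152) in the authors' deposited table for 72 h. Eef1akmt1 and Eef1akmt2, which act on eEF1A, were at -0.13 and -0.22 and did not pass. Eif3f, the eIF3 gene whose start tract and E-box are printed with the promoter stretches, was at -0.25 (FDR 0.00925) in the authors' deposited table. The other 13 eIF3 genes did not pass at 72 h, with Eif3m lowest among them at -0.14 and Eif3b highest at 0.19 (FDR 0.0531) in the authors' deposited table.

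None of the genes of eIF2, eIF2B, eEF1 or the eIF4E-binding regulators passed at 72 h in the authors' deposited table. Eif2a was at -0.19 (FDR 0.0733) and Eif2d at 0.18 (FDR 0.115) in the authors' deposited table. Eef1a1 and Eef1b2 were at -0.16 and -0.15 (FDR 0.162 and 0.135) there, and Eef1e1, which had risen at 10 h, at 0.04. In the same table, leukemic progenitor markers had a median log2 fold change of -0.28, with 2 of 10 higher and 6 lower, and monocyte and macrophage markers one of 0.81, with 6 of 10 higher and 1 lower. Erythroid markers had a median of 1.26 and neutrophil markers of 1.03, the direction opposite to that of the edgeR fit at 10 h (-5.74 and -1.97). In the p53null table the medians were -0.13 over the 5 erythroid markers measured there and -0.04 over 12 neutrophil markers. Both p53WT tables held 14 erythroid markers, so the erythroid medians cover unlike sets. The part of these cell types in the factor values at 72 h was not tested.

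**Figure D5:**
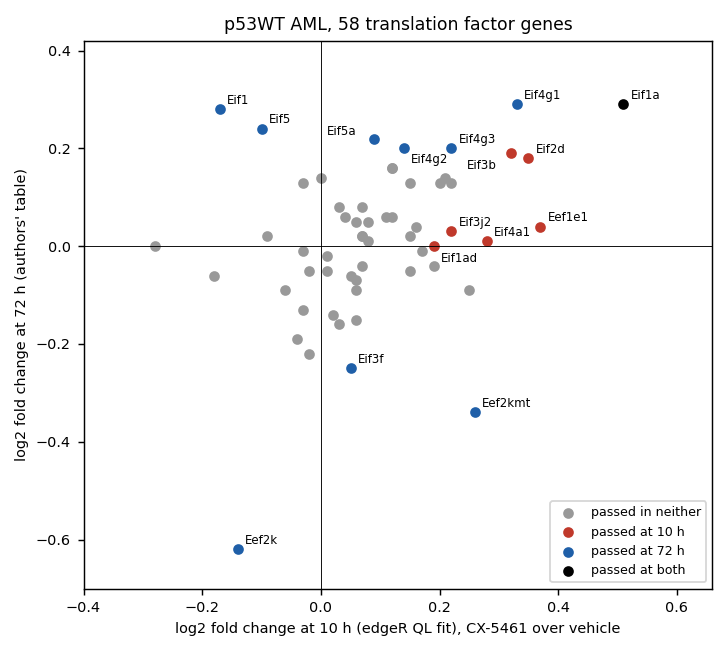
Log2 fold change of 58 factor genes with CX-5461 in p53WT AML at 10 h (edgeR fit, horizontal) and at 72 h (authors' deposited table, vertical). Colours show in which comparison a gene passed 0.05 after adjustment. Eif1a is the 1 gene that passed in both, and Eef2kmt and Eef2k lie low at 72 h, on opposite sides of 0 at 10 h.

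Eif1a was the 1 factor gene that rose in both p53WT comparisons, by 0.51 at 10 h and by 0.29 at 72 h in the authors' deposited table. Of the 10 genes that passed at 72 h, 6 had the same sign at 10 h. Eif1 and Eif5 rose at 72 h in the authors' deposited table but were at -0.17 and -0.10 at 10 h (adjusted p = 0.241 and 0.396). Eef2kmt was at 0.26 at 10 h and at -0.34 at 72 h in the authors' deposited table. Over the 58 genes in both, 39 had the same sign, and the log2 fold changes correlated across genes at Pearson r = 0.34 and Spearman rho = 0.38. Over the 12277 genes of both tables the same correlations were -0.34 and -0.16. The 2 comparisons have separate vehicle groups and may differ in the source of the leukemia. Genes are not independent replicates, and the difference between the times was not tested.

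Among the 5 genes with a window that rose at 10 h, 1 held the E-box, and among the 8 that passed at 72 h, 4 held it, Eif4g1 and Eif5a among those that rose and Eef2k and Eif3f among those that fell. Myc, the transcription factor gene, measured 202, 153 and 206 CPM with vehicle and 238, 243 and 221 CPM with CX-5461 in p53WT AML at 10 h. The groups did not overlap, and the log2 fold change of 0.32 (SE 0.113) did not pass (adjusted p = 0.107). Myc was at -0.77 (FDR 1.02e-09) in p53WT AML at 72 h and at 0.03 (FDR 1.0) in p53null AML in the authors' deposited tables.

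A list of 50 other genes of translation and its control was read beside the factors. It held poly(A)-binding proteins, release and rescue factors, mTOR and its partners, the Eif2ak kinases and their pathway, and the enzymes that modify eIF5A and eEF2. In p53WT AML at 10 h, 2 of 48 measured genes rose and 0 fell by edgeR, beside 3.78% and 4.32% of all genes. At an unadjusted p under 0.05, 14 were higher and 3 lower, beside 14.7% and 16.7% of all genes. DESeq2 gave 9 higher and 3 lower (962 and 1352 of all 12679 genes), and limma-voom 1 and 0 (394 and 330 of all genes). The 2 that rose encode the enzymes of the first step of diphthamide synthesis, a modification of eEF2. Dph1 measured 12.0, 10.6 and 12.2 CPM with vehicle and 16.8, 16.2 and 15.5 CPM with CX-5461 (log2 fold change 0.48, SE 0.0895, adjusted p = 0.0361). Dph2 measured 19.4, 15.7 and 18.6 CPM with vehicle and 24.2, 22.4 and 24.5 CPM with CX-5461 (log2 fold change 0.41, SE 0.0971, adjusted p = 0.0497). For both the groups did not overlap, and without CX-5461 library 1, 2 or 3 no gene of the list passed. Dph3, Dph5 and Dph6, of later or supporting steps, had log2 fold changes of 0.10, 0.23 and 0.33 and did not pass.

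In p53null AML 0 of 48 listed genes passed in the authors' deposited table, beside 0.148% of all genes higher and 0.0389% lower. At the authors' unadjusted p under 0.05, 0 were higher and 1 lower, beside 3.15% and 2.92% of all genes. In p53WT AML at 72 h, 5 of 49 rose (10.2%) and 7 fell (14.3%) in the authors' deposited table, shares under the 16.1% and 15.1% of all genes. The stress-response genes Atf4 and Ddit3 rose by 0.61 (FDR 8.79e-07) and 0.45 (FDR 0.00713) in the authors' deposited table. The mTORC1 inhibitor gene Tsc2 (0.27, FDR 0.00369), the release factor gene Etf1 (0.25, FDR 0.00526) and the eIF4E kinase gene Mknk1 (0.30, FDR 0.00742) also rose there. Besides Myc, the genes that fell in the authors' deposited table included Pdcd4, an inhibitor of eIF4A (-0.73, FDR 5.27e-13), and Eif2ak2, the kinase of eIF2 that senses double-stranded RNA (-0.43, FDR 4.84e-05). Rptor, which brings substrates to mTORC1, was at -0.28 (FDR 0.00243) and the release factor gene Gspt2 at -0.42 (FDR 0.00119) in the authors' deposited table. Dph5 and Tpt1 were the other 2 that fell.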

How the data were processed

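RNA was measured in 18 samples by sequencing of libraries from a TruSeq kit that does not mark strand, so overlapping and antisense genes cannot be told apart. The tools named in the submitters' processing notes are edgeR, HTSeq, Bowtie and CASAVA 1.8.2, the build is mm9, and no settings are given. The authors deposited raw counts per gene in 6 columns of the table for p53WT AML at 10 h, and per the file headers all 3 tables hold the authors' edgeR log2 fold change, log2 mean CPM, p-value and FDR. Genes with low counts were already absent. The count columns are numbered 1 to 3 and the sample titles 3 to 5, so columns were assigned to groups and not to titled samples. Library numbers in the text are those of the columns.

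Counts were fitted with edgeR 4.0.16 (R 4.3.3): TMM, quasi-likelihood F test, two-sided, treatment as the only term, 4 residual degrees of freedom, Benjamini-Hochberg adjustment over 12679 genes, threshold 0.05. Log2 CPM used a prior count of 2. The fit was run on simulated counts with the same spread in both groups and larger changes than those of the factor genes. That run does not show how the fit deals with the wider spread of the vehicle libraries. For the other 2 tables, which hold no counts, calls are the authors' FDR under 0.05. Positive values of the authors mean higher with CX-5461 in the count table (Pearson r with the fit across genes 1.00), and the other 2 tables were read the same way. An exact permutation test of 3 against 3 libraries cannot go below 0.10 and was not run. Ensembl IDs were paired with symbols for 12237, 12366 and 12362 genes. Exon lengths are merged exons of GENCODE vM21, and no coordinates in mm9 are given. Every member found by the rule is accounted for. Named with values are those past the threshold and the 2 most abundant of each role, and up to 10 listed partner genes per comparison. Others were named after their values were seen. The members and all lists were chosen with earlier results of these data known. Alternatives were RLE factors, library size alone, a mean of at least 5 CPM, DESeq2 1.42.0, limma 3.58.1 (voom), the edgeR exact test, each library left out, and FDR thresholds of 0.01 and 0.10. Use of the authors' FDR on the count table was chosen after seeing the data.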

Additional observations from a re-analysis of the deposited data

How the results depend on the processing

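No paired analysis was possible because the count columns carry the numbers 1 to 3 and the titles 3 to 5, so that columns are not tied to titled samples. At 10 h in p53WT AML, 7 factor genes were higher and 0 lower, with 12 and 1 by DESeq2, 1 lower at a mean of at least 5 CPM, and 1 higher by the authors' deposited FDR. Leaving out 1 library gave 0 to 8 higher and 0 to 1 lower, and the partner list 0 to 5 higher and 0 to 3 lower. That list, with 2 higher and 0 lower, gave 1 higher with RLE factors, with library size alone and with limma-voom, 9 and 3 by DESeq2, 5 and 3 by the edgeR exact test, and 2 lower by the authors' deposited FDR. The factor genes' median of 0.07 was 0.11 with library size alone and 0.05 to 0.09 with 1 library left out. Library size alone moved the median of all genes from 0.00 to 0.04. At 72 h, an FDR under 0.01 left 2 factor genes higher, and one under 0.10 gave 5 lower and 8 partner genes higher. A left-out library leaves fewer samples, and the causes of these differences were not tested.

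Signs turned only for genes that did not pass. With library size alone, Eef1akmt1 was at 0.02, Eef1akmt2 at 0.03, Eef2 at 0.02, Eif2a at 0.00, Eif2b4 at 0.02 and Eif4e2 at 0.01. Eif4enif1 was at -0.01 with RLE factors and DESeq2, and at -0.00 with limma-voom, the exact test and a mean of at least 5 CPM. Over the left-out libraries, log2 fold changes ran from -0.07 to 0.00 for Eef1akmt1, -0.08 to 0.03 for Eef1akmt2, -0.06 to 0.01 for Eef2, -0.07 to 0.01 for Eif2b4, -0.02 to 0.03 for Eif3e and -0.03 to 0.04 for Eif3k. They ran from -0.03 to 0.08 for Eif3m, -0.02 to 0.12 for Eif4a2, -0.01 to 0.13 for Eif4ebp1, -0.02 to 0.01 for Eif4enif1 and -0.42 to 0.25 for Eif5a2, whose sign turned without vehicle library 2. Depth limits Eif5a2 most. For the p53null and 72 h tables the depth is unknown.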

Other observations

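In p53WT AML at 10 h, 2 regulators of eIF2 phosphorylation differed widely among vehicle libraries. Ppp1r15a, a stress-induced gene whose product directs dephosphorylation of eIF2, measured 34.9, 101 and 5.91 CPM in vehicle libraries 1, 2 and 3 and 4.85, 4.41 and 4.34 CPM with CX-5461. Its log2 fold change of -3.38 (SE 0.898) had an adjusted p of 0.0594 by the edgeR quasi-likelihood test and an FDR of 8.31e-06 in the authors' deposited table. Eif2ak1, the heme-regulated eIF2 kinase, measured 84.8, 121 and 74.7 CPM with vehicle and 66.6, 67.3 and 63.1 CPM with CX-5461. Its log2 fold change was -0.51 (SE 0.167, adjusted p = 0.0919), and the FDR of the authors' deposited table was 0.0452. In both genes vehicle library 2 was highest and vehicle library 3 lowest, the order of the summed erythroid markers (4725, 16213 and 531 CPM). The part of the erythroid signal in these 2 genes was not tested.

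Eef1a1 had a log2 mean CPM of 12.82 in the authors' deposited table for p53WT AML at 10 h, 11.40 in that for p53null AML and 10.92 in that for p53WT AML at 72 h. Between the 2 p53WT tables the difference was 1.90, and the median difference over 12277 shared genes was 0.07. A difference of at least that size was found in 214 of those genes, of which 132 had names of pseudogenes or gene models. Eef1a1 was the 1 factor gene that differed by over 0.6 between them. The tables were normalized separately, and the cause was not tested.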
